A study of Mus musculus with 6 samples.

Results

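The genes described here encode ribosome biogenesis and nucleolar factors of the mouse: 40 named genes, taken by symbol from a deposited expression table of 51912 gene IDs. All 40 had a mean of at least 1 TPM (the deposited unit, a level scaled by gene length and library) over the 6 libraries and were among the 9287 genes that passed this minimum and were tested. The libraries came from bulk RNA sequencing of total RNA from bladder tumor organoids of the C57BL/6 strain. Organoids are cultures in which cells grow as small 3-dimensional bodies. Of the libraries, 3 were from organoids exposed to SRT1720, a compound known as an activator of SIRT1, which removes acetyl groups from proteins, and 3 from organoids given vehicle. The tumor model, genotype, age of the mice, dose, duration and composition of the vehicle are not given in the labels used here. The study's title places the comparison in the SIRT1 and HIF pathways and in bladder cancer growth, so the question for these genes is how their RNA levels differed between the 2 groups.

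Ribosomes are assembled mainly in the nucleolus. RNA polymerase I transcribes the precursor of most ribosomal RNA there, small nucleolar ribonucleoproteins (snoRNPs) guide its chemical modification, and a long series of assembly factors folds, cleaves and exports the precursors of the small and large subunits. Genes of this kind are commonly active in growing cells and tumors, and many are described targets of the transcription factor MYC. The 40 genes were grouped by role into 3 subunits of RNA polymerase I (Pol I), 5 nucleolar hub proteins, 4 box C/D and 3 box H/ACA snoRNP proteins, 13 factors of the small subunit and 12 of the large subunit.

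None of the 40 genes passed the test: limma on log2(TPM + 1), with Benjamini-Hochberg adjustment over all 9287 genes, called 0 of them at an adjusted p under 0.05, and the call rate over all genes was 0%. Without adjustment, 1153 genes (12.4%) had a p under 0.05 in either direction, and limma voom on recovered reads likewise called 0 of the 40. The smallest adjusted p among them was 0.155, for Heatr3. This gene passed the 1 TPM minimum only through its SRT1720 libraries, and it is included in the counts that follow. The mean was nevertheless higher with SRT1720 for 40 of 40 genes, against 54.8% of all tested genes. Their median log2 fold change was 0.40 (range 0.07 to 1.07), against 0.04 over all tested genes, and 11.8% of all tested genes were at or above 0.40. For 22 of the 40, all 3 SRT1720 values lay above all 3 vehicle values, which was so for 12.1% of all tested genes. The opposite order, seen for 7.75% of all tested genes, occurred for 0 of the 40. At an unadjusted p under 0.05, 16 of the 40 were higher with SRT1720 and none lower, against 7.86% of all tested genes higher. Leaving out SRT1720 2 made that count of 16 a count of 5, beside 3.4% of all tested genes higher at that p and a median log2 fold change of 0.37 for the 40. Leaving out SRT1720 3 made it 8 (all genes 6.11%, median of the 40 genes 0.41), and leaving out Vehicle 3 made it 7 (all genes 6.36%, median of the 40 genes 0.31). The difference between the group means exceeded the pooled standard deviation within groups for 34 of the 40. The share of all tested genes for which this held was not computed, so this count has no background to be read against. Because the genes were chosen with earlier results of these data known, these counts are a description and carry no test of the list. In RNA from whole organoids, fewer cells of a type and less RNA per cell cannot be told apart.

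**Figure D1:**
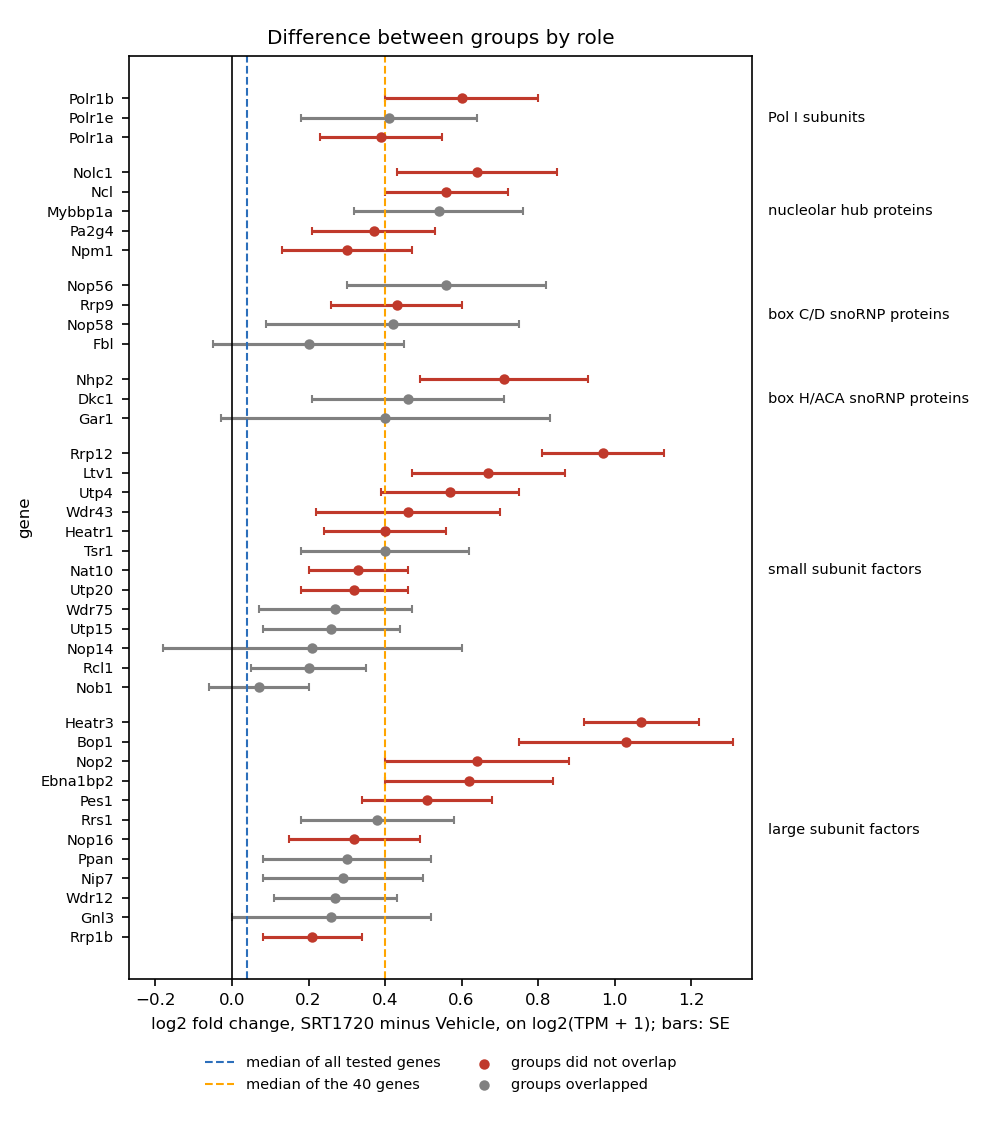
Log2 fold change of each gene (points, SRT1720 minus vehicle on log2(TPM + 1)) with its standard error (bars), grouped by role, n = 3 libraries per group. All 40 points lie to the right of 0, and the dashed lines mark the medians of all tested genes (0.04) and of the 40 genes (0.40).

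**Figure D2:**
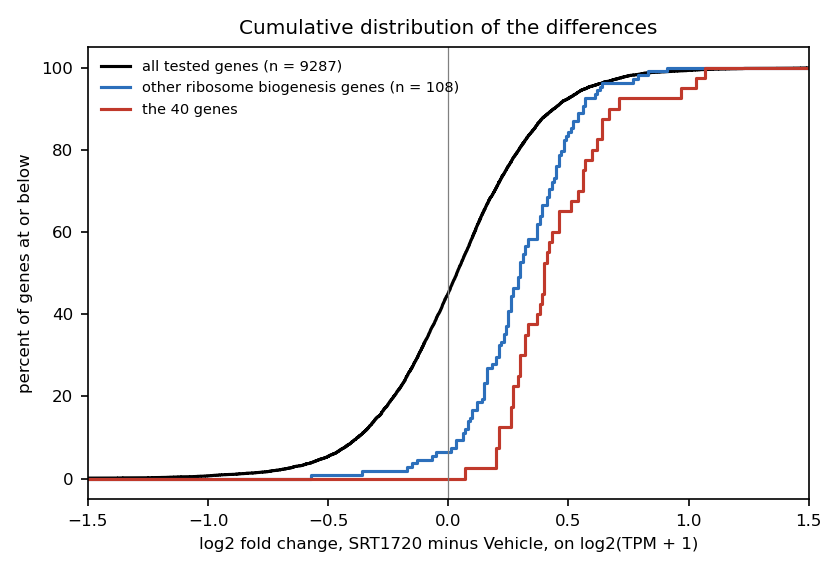
Cumulative share of genes (vertical axis, percent) at or below each log2 fold change (horizontal axis) for the 40 genes, 108 other ribosome biogenesis genes and all 9287 tested genes. The curve of the 40 genes starts above 0 and lies to the right of the curve of all tested genes over most of its range.

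Sequencing depth was alike in the 2 groups. The deposited values fell on steps of 1 read, from which 18246204 to 22835665 reads per library were recovered, and 1 read on 1 kb of a gene was worth 0.0170 to 0.0212 TPM. The fewest reads behind one of the 40 genes in a library were 252 (Heatr3) and the most 32278 (Ncl). Of the marker lists read in these libraries, 10 of 10 basal urothelial genes and 7 of 13 luminal ones had a mean of at least 1 TPM, against 2 of 14 for fibroblasts, 3 of 20 for leukocytes, 0 of 11 for endothelium and 1 of 9 for smooth muscle. The summed basal markers ranged from 152.1 to 3142 TPM with SRT1720 and from 100.9 to 2373 TPM with vehicle, and the summed luminal markers from 119.2 to 434.3 and from 117.8 to 279.5 TPM. Upk3a, Cd3e, Cd3g, Ms4a1, Emcn and Cldn5 were listed at 0 in all libraries. The basal keratin Krt5 was at 16.4, 616 and 1120 TPM in the SRT1720 libraries and 425, 9.61 and 741 TPM in the vehicle libraries, and the luminal keratin Krt18 at 226, 57.6 and 25.3 TPM in the SRT1720 libraries and 48.0, 162 and 29.2 TPM in the vehicle libraries. SRT1720 1 and Vehicle 2 thus stood apart from the other libraries of their groups in Krt5 and Krt18. Not every luminal gene followed Krt18. Of the 7 with a mean of at least 1 TPM, Krt7 and Krt8 likewise peaked in these libraries within each group. Upk1b instead had its smallest value of each group there, 1.47 and 0.66 TPM, and Krt19, Gata3 and Foxa1 followed neither order. SRT1720 3 and Vehicle 3 held the highest summed mitochondrial ribosomal RNA of their groups, at 701.6 and 1562 TPM.

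Promoter sequences can be compared between the 40 genes and other genes. The sequences do not depend on the libraries, but the sets compared partly do. Tested genes and the other ribosome biogenesis genes had passed the 1 TPM minimum in these libraries, and the 40 genes were chosen with earlier results known. RefSeq windows on GRCm38.p6, from 250 bases before to 50 bases after the start site, matched 35 of the 40 symbols. The genes without a match were Npm1, Bop1, Rrs1, Fbl and Rrp12. The E-box CACGTG, which MYC with MAX and several other helix-loop-helix factors can bind and which reads alike on both strands, was in 8 of the 35 windows (22.9%). A window of 19.3% of 88 other ribosome biogenesis genes held it, as did one of 12.6% of 6500 tested genes. Of all 27025 genes with a RefSeq window, measured here or not, the share was 8.09%. In 7 of the 8 genes the E-box began at or after the first transcribed base, whereas 133 of the 818 tested genes with an E-box had one there. This position was not computed for the other ribosome biogenesis genes with an E-box. The 8 windows are shown because the E-box sits just inside the transcribed region in so many of them. Each is 30 bases, written 5′ to 3′ on the strand of the gene, with the E-box in capitals.

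Nop2 (chr6:125131811-125131840, plus strand): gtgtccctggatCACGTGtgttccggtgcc
Utp4 (chr8:106893643-106893672, plus strand): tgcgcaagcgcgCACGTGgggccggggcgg
Ltv1 (chr10:13193092-13193121, minus strand): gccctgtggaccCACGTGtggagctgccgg
Utp20 (chr10:88826765-88826794, minus strand): cccagcggcactaactaCACGTGaggaaaa
Pes1 (chr11:3963965-3963994, plus strand): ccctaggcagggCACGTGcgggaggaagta
Mybbp1a (chr11:72441347-72441376, plus strand): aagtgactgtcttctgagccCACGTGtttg
Tsr1 (chr11:74898092-74898121, plus strand): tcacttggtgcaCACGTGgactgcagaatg
Wdr43 (chr17:71616220-71616249, plus strand): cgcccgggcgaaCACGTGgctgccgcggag

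Counted with the first transcribed base as 0, the E-box began at base 2 in Pes1, 15 in Utp4, 17 in Wdr43, 24 in Tsr1, 28 in Ltv1, 37 in Utp20 and 40 in Mybbp1a, and at base -60 in Nop2. In 6 of these 8 genes the SRT1720 and vehicle values did not overlap, and their median log2 fold change was 0.53, against 13 of the 27 genes with a window but no E-box and a median of 0.39. Over all tested genes, 12.1% were higher with SRT1720 without overlap. The share among all tested genes with an E-box was not computed. Both counts are small, come from genes chosen with earlier results known, and were not tested.

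The ETS-type sequence CCGGAAG, the core bound by ETS family factors, was searched on both strands and does not overlap CACGTG in its letters. It was in 12 of the 35 windows (34.3%). Of the other ribosome biogenesis genes with a window 44.3% held it, of tested genes 22.9% and of all 27025 genes with a RefSeq window 9.93%. Of the 12 genes, 7 had groups without overlap in RNA level (median log2 fold change 0.49), against 12 of the 23 without the sequence (0.37). Over all tested genes, 12.1% were higher with SRT1720 without overlap, and the counts by sequence were not tested. Both sequences were present in 4 windows. The CGCG palindrome that the factor BANP binds was in 0 of the 35 windows, 3.41% of those of the other ribosome biogenesis genes and 1.46% of those of tested genes. Windows are shown for the 7 genes with groups without overlap, a choice made by RNA level. The match farthest upstream is in capitals, in either orientation. In 6 of the 7 it begins within the 50 bases before the start site. Among the genes not shown, it began at base -43 in Gar1 and -1 in Tsr1, so this position is not particular to the genes shown. In Nip7, Ppan and Polr1e it began at base -103, 18 and 25.

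Ebna1bp2 (chr4:118620784-118620813, plus strand): gcaacgagaaaaCCGGAAGtgcggctatga
Nop2 (chr6:125131833-125131862, plus strand): ccggtgccgcggCCGGAAGaggcggggcgt
Utp4 (chr8:106893585-106893614, plus strand): attgcctgcgcaCTTCCGGcctcgcgccgc
Ltv1 (chr10:13193218-13193247, minus strand): tagccccacctcCCGGAAGtccccgggaag
Nhp2 (chr11:51619738-51619767, plus strand): ccacttgaaaacCCGGAAGtgatgtcggag
Heatr1 (chr13:12395347-12395376, plus strand): cgtagtgagaagCCGGAAGttcctatgagg
Nolc1 (chr19:46075821-46075850, plus strand): acgcgtgtgggaCCGGAAGcaacttctaga

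**Figure D3:**
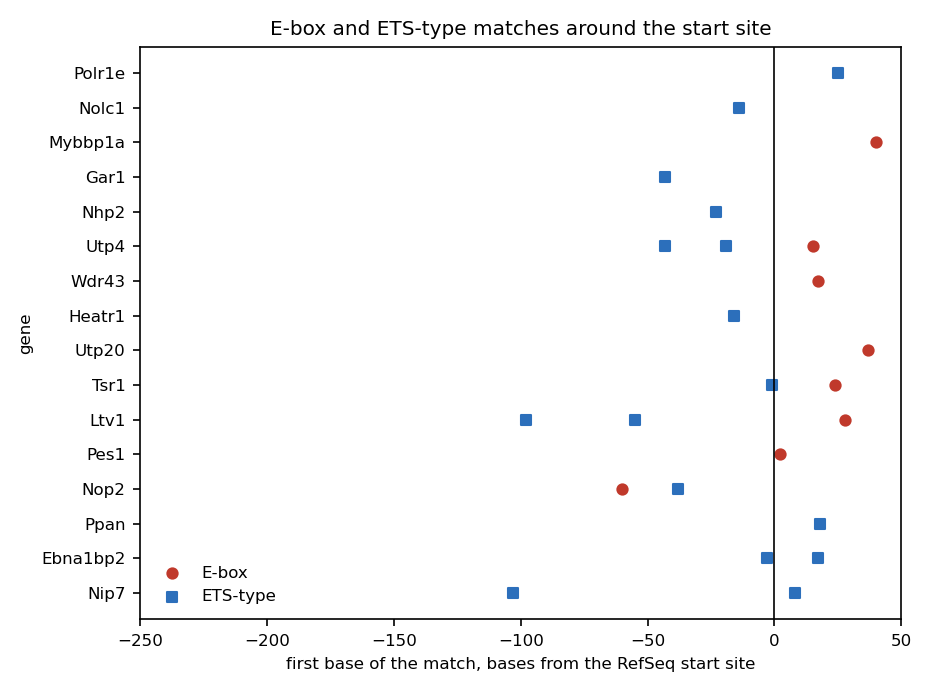
Position of each E-box and ETS-type match (horizontal axis, bases from the start site, which is the first transcribed base) in the promoter windows of the genes that hold one (vertical axis). E-boxes lie after the start site in 7 of 8 genes, and ETS-type matches lie there in 4 of 12 genes.

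RNA polymerase I is the enzyme that makes the ribosomal RNA precursor, and the 3 subunits among the 40 genes had higher means with SRT1720 (median log2 fold change 0.41). In the sentences that follow, values are given for libraries 1, 2 and 3 of each group in that order. Polr1b, the second largest subunit, was at 3.13, 5.04 and 4.38 TPM in the SRT1720 libraries and 2.32, 2.96 and 1.91 TPM in the vehicle libraries, a log2 fold change of 0.60 (SE 0.20, adjusted p = 0.345). Polr1a, the largest subunit and the one with the main part of the active site, was at 2.615, 3.275 and 3.835 TPM in the SRT1720 libraries and 2.24, 1.89 and 2.56 TPM in the vehicle libraries, with a log2 fold change of 0.39. The groups did not overlap for either gene, although the lowest SRT1720 value of Polr1a was only just above the highest vehicle value. Polr1e, a subunit that helps the enzyme start and elongate, was at 1.16, 2.77 and 2.17 TPM in the SRT1720 libraries and 1.52, 0.934 and 1.26 TPM in the vehicle libraries, a log2 fold change of 0.41 (SE 0.23, adjusted p = 0.516). Its SRT1720 1 value lay below 2 of the 3 vehicle values, so the groups overlapped.

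The nucleolar hub proteins organise the nucleolus and bind ribosomal RNA, ribosomal proteins or snoRNPs. Their median log2 fold change was 0.54, and groups did not overlap for 4 of 5. Ncl, nucleolin, an abundant RNA-binding protein, was at 43.05, 41.05 and 39.1 TPM in the SRT1720 libraries and 24.6, 30.2 and 28.3 TPM in the vehicle libraries, a log2 fold change of 0.56 (SE 0.16, adjusted p = 0.308). Nolc1, which chaperones snoRNPs, was at 24.6, 31.4 and 28.4 TPM in the SRT1720 libraries and 19.0, 20.6 and 13.9 TPM in the vehicle libraries, a log2 fold change of 0.64 (SE 0.21, adjusted p = 0.335). Within each group of Ncl the values were close together, and for Nolc1 Vehicle 3 was well below the other libraries. Pa2g4, a growth-related protein that associates with ribosomal precursors, was at 20.8, 25.15 and 22.1 TPM in the SRT1720 libraries and 18.2, 17.3 and 16.3 TPM in the vehicle libraries, with a log2 fold change of 0.37. Npm1, nucleophosmin, a chaperone of the nucleolus, was at 74.0, 73.3 and 58.1 TPM in the SRT1720 libraries and 56.5, 52.1 and 56.4 TPM in the vehicle libraries, a log2 fold change of 0.30 (SE 0.17, adjusted p = 0.505). The Npm1 groups were separated by less than 2 TPM, with SRT1720 3 close to the vehicle libraries. Mybbp1a, a nucleolar protein that binds MYB and acts on ribosomal RNA transcription, had 13.1 ± 2.6 TPM with SRT1720 against 8.725 ± 1.72 TPM with vehicle (mean ± SD, n = 3 each), and its groups overlapped through SRT1720 1 and Vehicle 1.

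Box C/D snoRNPs add methyl groups to ribosomal RNA, and 1 of their 4 proteins here had groups without overlap. Rrp9, a protein particular to the U3 particle that is needed for cleavage of the precursor, was at 4.53, 4.80 and 4.12 TPM in the SRT1720 libraries and 3.825, 2.985 and 2.485 TPM in the vehicle libraries, a log2 fold change of 0.43 (SE 0.17, adjusted p = 0.374). Its 3 SRT1720 values were all above 4 TPM and its vehicle values all below. Fbl, fibrillarin, the methyltransferase itself, was at 8.68, 8.21 and 8.56 TPM in the SRT1720 libraries and 5.45, 10.9 and 6.29 TPM in the vehicle libraries, a log2 fold change of 0.20 (SE 0.25, adjusted p = 0.803). It was the one gene of the 40 whose highest library was a vehicle library, Vehicle 2, while Vehicle 1 and Vehicle 3 lay below all SRT1720 values. The scaffold proteins of the same particle, Nop56 and Nop58, were also high in Vehicle 2: Nop56 had 6.205 ± 0.302 TPM with SRT1720 against 4.07 ± 1.76 TPM with vehicle, Nop58 had 7.33 ± 2.26 TPM with SRT1720 against 5.39 ± 2.63 TPM with vehicle, and for both genes the groups overlapped only through Vehicle 2.

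Box H/ACA snoRNPs convert uridine in ribosomal RNA to pseudouridine and also bind telomerase RNA. Nhp2, an RNA-binding core protein, was at 33.8, 41.8 and 32.6 TPM in the SRT1720 libraries and 27.45, 17.6 and 20.7 TPM in the vehicle libraries, a log2 fold change of 0.71 (SE 0.22, adjusted p = 0.331). Its highest library was SRT1720 2, and the groups did not overlap. Gar1, another core protein, was at 9.515, 6.74 and 3.37 TPM in the SRT1720 libraries and 5.48, 6.47 and 2.21 TPM in the vehicle libraries, a log2 fold change of 0.40 (SE 0.43, adjusted p = 0.768). Gar1 varied more within groups than between them, and SRT1720 3 lay below Vehicle 1 and Vehicle 2. Dkc1, dyskerin, the pseudouridine synthase, had 5.67 ± 1.39 TPM with SRT1720 against 3.87 ± 1.17 TPM with vehicle, and its groups overlapped.

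Of the 13 factors that assemble the small subunit, 7 had groups without overlap, and the median log2 fold change was 0.33. Rrp12, a HEAT-repeat protein that takes part in maturation and export of the subunits, is at chromosome 19, bases 41862851 to 41896173 on GRCm38. Its level was 5.25, 5.47 and 6.47 TPM in the SRT1720 libraries and 2.59, 2.78 and 1.96 TPM in the vehicle libraries, a log2 fold change of 0.97 (SE 0.16, adjusted p = 0.165). All SRT1720 libraries were well above all vehicle libraries, and Rrp12 had the second smallest adjusted p of the 40. Ltv1, which acts late in the maturation of the small subunit, was at 9.31, 7.60 and 8.34 TPM in the SRT1720 libraries and 6.52, 4.33 and 4.09 TPM in the vehicle libraries, a log2 fold change of 0.67 (SE 0.20, adjusted p = 0.308). Its Vehicle 1 value was higher than those of the other vehicle libraries and still below all SRT1720 values.

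The complex that binds first to the growing precursor is represented by Utp4, Utp15, Wdr43, Wdr75 and Heatr1. Utp4 was at 8.26, 11.0 and 8.705 TPM in the SRT1720 libraries and 6.77, 5.96 and 5.05 TPM in the vehicle libraries, a log2 fold change of 0.57 (SE 0.18, adjusted p = 0.335). Wdr43 was at 19.9, 17.8 and 31.3 TPM in the SRT1720 libraries and 14.65, 16.75 and 16.8 TPM in the vehicle libraries, a log2 fold change of 0.46 (SE 0.24, adjusted p = 0.489). Heatr1 was at 4.48, 4.17 and 5.18 TPM in the SRT1720 libraries and 3.10, 3.99 and 2.76 TPM in the vehicle libraries, with a log2 fold change of 0.40. The 3 genes had groups without overlap, but for Wdr43 the separation of SRT1720 1 and 2 from the vehicle libraries was small and SRT1720 3 stood far above. Utp15 had 7.69 ± 0.608 TPM with SRT1720 against 6.34 ± 1.37 TPM with vehicle and Wdr75 3.78 ± 0.477 TPM with SRT1720 against 3.03 ± 0.91 TPM with vehicle, and both overlapped only through Vehicle 2. Other factors act on the same particle. Utp20, a large scaffold protein, was at 3.71, 3.79 and 3.48 TPM in the SRT1720 libraries and 2.65, 3.13 and 2.44 TPM in the vehicle libraries, with a log2 fold change of 0.32. Nat10, which acetylates cytidine in ribosomal RNA, was at 2.02, 1.71 and 1.72 TPM in the SRT1720 libraries and 1.19, 1.46 and 1.08 TPM in the vehicle libraries, with a log2 fold change of 0.33. In both genes every SRT1720 value exceeded every vehicle value, with narrow gaps between Vehicle 2 and the lowest SRT1720 library. Nob1, the nuclease that makes the final cut at the end of the small subunit RNA, was at 3.33, 3.52 and 3.14 TPM in the SRT1720 libraries and 3.50, 3.11 and 2.81 TPM in the vehicle libraries, a log2 fold change of 0.07 (SE 0.13, adjusted p = 0.894). This was the smallest difference of the 40, and Vehicle 1 lay among the SRT1720 libraries. Nop14, a scaffold of the early particle, varied most by library in this class and is given here because of that, having been picked after its values were seen. It was at 20.6, 11.5 and 9.88 TPM in the SRT1720 libraries and 9.23, 19.5 and 7.99 TPM in the vehicle libraries, a log2 fold change of 0.21 (SE 0.39, adjusted p = 0.881). SRT1720 1 and Vehicle 2 were each far above the other libraries of their group, and the log2 fold change was -0.08 without SRT1720 1 and -0.02 without Vehicle 3. Tsr1, a GTPase-like factor, had 4.24 ± 0.552 TPM with SRT1720 against 3.04 ± 1.08 TPM with vehicle. Rcl1, a factor related to RNA cyclases that is needed for an early cleavage, had 9.86 ± 1.01 TPM with SRT1720 against 8.45 ± 0.449 TPM with vehicle. Both overlapped between groups.

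Of the 12 factors of the large subunit, 7 had groups without overlap and the median log2 fold change was 0.35. The largest difference of the 40 was that of Heatr3, which escorts a ribosomal protein of the large subunit into the nucleus, at chromosome 8, bases 88137855 to 88172027 on GRCm38. Heatr3 was at 2.79, 3.07 and 2.10 TPM in the SRT1720 libraries and 0.865, 0.712 and 0.608 TPM in the vehicle libraries, a log2 fold change of 1.07 (SE 0.15, adjusted p = 0.155). The ratio of its group means was 3.64, which the log2(TPM + 1) scale understates at such low levels. Its vehicle mean of 0.728 TPM is below the 1 TPM minimum, so Heatr3 entered the test only through its SRT1720 libraries and had to differ to be tested.

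Bop1, Pes1 and Wdr12 form the complex that is needed for maturation of the large subunit RNA. Bop1, at chromosome 15, bases 76452989 to 76477277, was at 10.6, 17.8 and 17.6 TPM in the SRT1720 libraries and 9.58, 5.47 and 5.98 TPM in the vehicle libraries, a log2 fold change of 1.03 (SE 0.28, adjusted p = 0.295). Pes1 was at 10.5, 12.7 and 11.15 TPM in the SRT1720 libraries and 8.15, 8.56 and 6.55 TPM in the vehicle libraries, a log2 fold change of 0.51 (SE 0.17, adjusted p = 0.342). In Bop1, SRT1720 1 lay only slightly above Vehicle 1, whereas SRT1720 2 and 3 were far above all vehicle libraries. In Pes1 the gap between groups was slightly smaller than the range within either group. Wdr12, the third member, had 1.51 ± 0.304 TPM with SRT1720 against 1.08 ± 0.21 TPM with vehicle, with overlap between SRT1720 3 and Vehicle 1. Nop2, which methylates the large subunit RNA, was at 14.5, 19.7 and 16.8 TPM in the SRT1720 libraries and 9.99, 14.4 and 7.85 TPM in the vehicle libraries, a log2 fold change of 0.64 (SE 0.24, adjusted p = 0.366). Ebna1bp2, an early assembly factor, was at 6.18, 8.63 and 7.21 TPM in the SRT1720 libraries and 6.09, 3.72 and 3.69 TPM in the vehicle libraries, a log2 fold change of 0.62 (SE 0.22, adjusted p = 0.355). For both, the lowest SRT1720 library was just above the highest vehicle library. Nop16, a factor of the early large subunit particle, was at 7.96, 8.83 and 8.52 TPM in the SRT1720 libraries and 7.66, 6.67 and 5.47 TPM in the vehicle libraries, with a log2 fold change of 0.32. Rrp1b, a nucleolar protein of the same particles, was at 2.05, 2.16 and 2.01 TPM in the SRT1720 libraries and 1.655, 1.89 and 1.45 TPM in the vehicle libraries, with a log2 fold change of 0.21. Their groups did not overlap but were close. Gnl3, nucleostemin, a GTPase known from stem and tumor cells, was at 21.1, 19.5 and 26.7 TPM in the SRT1720 libraries and 16.9, 26.1 and 14.1 TPM in the vehicle libraries, a log2 fold change of 0.26 (SE 0.26, adjusted p = 0.75). Its Vehicle 2 value was almost as high as the highest SRT1720 value, and its log2 fold change was -0.05 without both SRT1720 3 and Vehicle 3. The remaining factors overlapped between groups: Ppan had 3.42 ± 0.905 TPM with SRT1720 against 2.58 ± 0.614 TPM with vehicle, Rrs1 21.9 ± 1.89 TPM with SRT1720 against 16.8 ± 3.62 TPM with vehicle and Nip7 7.345 ± 1.57 TPM with SRT1720 against 5.82 ± 1.21 TPM with vehicle.

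**Figure D4:**
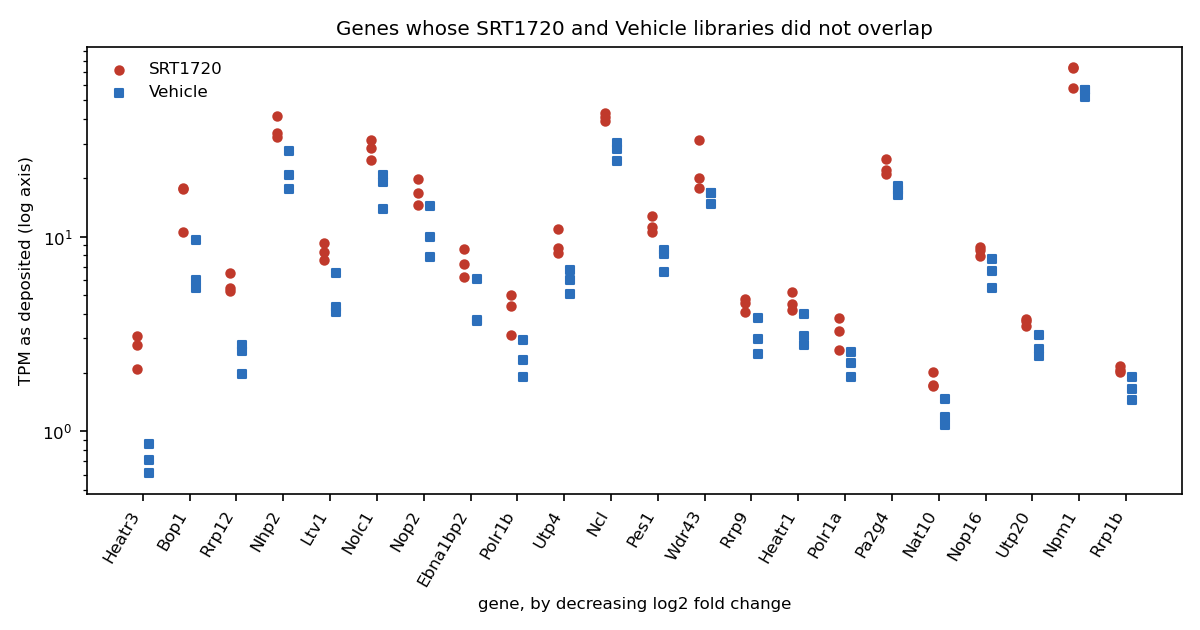
TPM in each library (points, logarithmic axis) of the 22 genes whose 3 SRT1720 values all lie above their 3 vehicle values, ordered by decreasing log2 fold change. The gap between groups is widest for Heatr3 and Rrp12, and for Nop2 and Ebna1bp2 the lowest SRT1720 point lies close to the highest vehicle point.

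The median level of the 40 genes also differed between libraries of a group. Against the mean of the vehicle libraries on the log2(TPM + 1) scale, the median of the 40 genes was 0.40, 0.50 and 0.44 in SRT1720 1, 2 and 3 and 0.07, 0.13 and -0.19 in Vehicle 1, 2 and 3. The same median over all tested genes was between -0.03 and 0.09 in every library. The pooled standard deviation of the library medians within groups was 0.12. Vehicle 3 was the lowest of the 6 libraries for 31 of the 40 genes, and the lowest library was a vehicle library for all 40. SRT1720 2 was the highest library for 20 genes, SRT1720 1 for 13 and SRT1720 3 for 6. Their summed level was 468.2, 498 and 467.8 TPM with SRT1720 and 346.2, 375.7 and 298.7 TPM with vehicle, so the lowest SRT1720 sum exceeded the highest vehicle sum.

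A second pattern ran across the groups. In 11 genes (Ncl, Fbl, Nop56, Nop58, Gar1, Utp15, Wdr75, Nop14, Nat10, Tsr1 and Nip7) SRT1720 1 and Vehicle 2, the libraries low in Krt5 and high in Krt18, were each the highest of their group. In 4 genes (Polr1a, Polr1e, Rcl1 and Bop1) these same libraries were each the lowest of their group. Of the 18 genes whose groups overlapped, 10 did so only through Vehicle 2: Fbl, Nop56, Nop58, Utp15, Wdr75, Nop14, Tsr1, Rrs1, Nip7 and Gnl3. These counts were made for the 40 genes alone. Over all tested genes, the deviations of SRT1720 1 and Vehicle 2 from their group means correlated at 0.72. The shared deviation of these libraries is thus not particular to the 40 genes. Without both SRT1720 1 and Vehicle 2 the median log2 fold change of the 40 genes was 0.53, all 40 were above 0, and 16 were at an unadjusted p under 0.05, beside 5.97% of all tested genes higher at that p. The part that differences in cell makeup between libraries have in the values of these genes was not tested. Without both SRT1720 3 and Vehicle 3, the libraries with the most mitochondrial ribosomal RNA, 3 of the 40 were at an unadjusted p under 0.05, beside 4.64% of all tested genes higher at that p. Their median log2 fold change was then 0.35, and 39 of 40 were above 0.

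**Figure D5:**
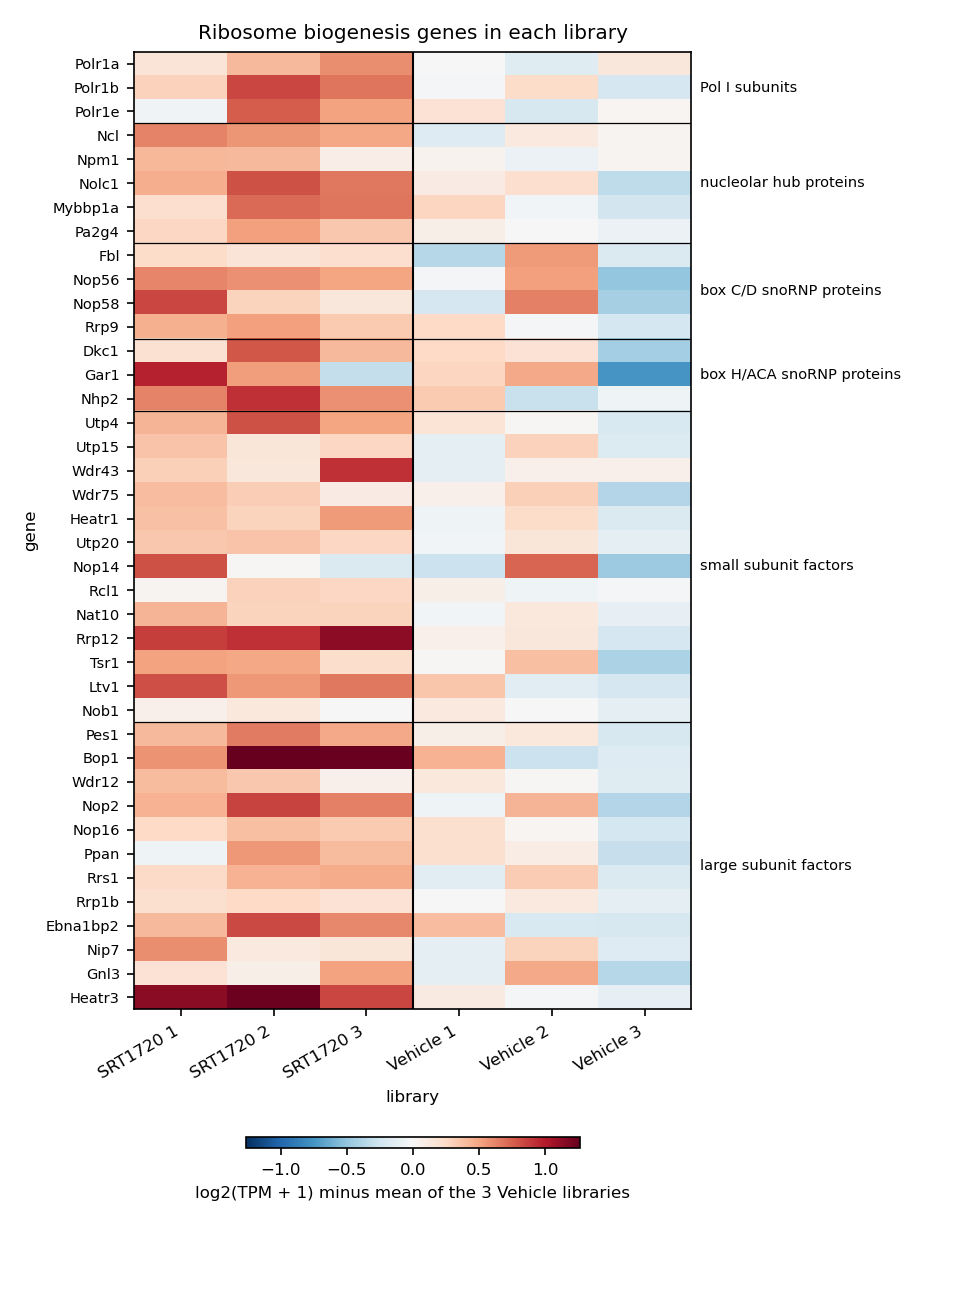
Level of each of the 40 genes (rows, grouped by role) in each library (columns) as log2(TPM + 1) minus the mean of the 3 vehicle libraries, in color from blue (lower) to red (higher). The SRT1720 columns are mostly red, Vehicle 3 is the column with the most blue, and Vehicle 2 is red for Fbl, Nop56, Nop58 and Nop14.

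Other genes of the pathway, from a list of 112 measured genes of which 108 passed the 1 TPM minimum, had a median log2 fold change of 0.30. Of the 108, 101 were above 0 and 7 below, against 54.8% of all tested genes above 0. Groups did not overlap for 41 that were higher and 2 that were lower, and 0 passed the test. Over all tested genes, groups did not overlap for 12.1% that were higher and 7.75% that were lower. At an unadjusted p under 0.05, 22 were higher and 1 lower, against 7.86% of all tested genes higher. Cd3eap, a Pol I subunit, was at 4.33, 5.66 and 5.14 TPM in the SRT1720 libraries and 2.21, 2.24 and 2.16 TPM in the vehicle libraries, a log2 fold change of 0.91 (SE 0.14, adjusted p = 0.155). Nifk, a nucleolar partner of the proliferation antigen Ki-67, was at 8.56, 11.4 and 9.87 TPM in the SRT1720 libraries and 5.90, 4.48 and 5.01 TPM in the vehicle libraries, with a log2 fold change of 0.83. Ddx21, an RNA helicase that acts in ribosomal RNA transcription and processing, was at 22.8, 28.6 and 28.0 TPM in the SRT1720 libraries and 15.6, 15.4 and 14.1 TPM in the vehicle libraries, with a log2 fold change of 0.77. In each of these 3 genes the groups were clearly separated. Polr1c, another Pol I subunit, named after its values were seen, was lower with SRT1720 than with vehicle, at 5.49 ± 0.769 against 6.10 ± 0.558 TPM, but its groups overlapped and its log2 fold change was -0.13. Ftsj3, a methyltransferase of the large subunit pathway, had a log2 fold change of 0.79, Pwp2, a small subunit factor, 0.57, Nol12 and Exosc2, which trim precursor RNA, 0.56 each, and Nle1, a large subunit factor, 0.49. The Nle1 vehicle mean was 0.793 TPM, so it too entered the test only through its SRT1720 libraries. The same holds for Las1l (vehicle mean 0.903 TPM) and Taf1b (0.825 TPM), named after their values were seen. All of these are among the 101 above 0. Nle1 and Las1l are also among the 41 without overlap and the 22 at an unadjusted p under 0.05. The 2 genes in the opposite order, named after their values were seen, were Imp3, a U3 particle protein, with 20.5 ± 2.32 TPM with SRT1720 against 31.1 ± 5.65 TPM with vehicle, and Nsa2, a large subunit factor, with 14.1 ± 1.5 and 18.6 ± 3.45 TPM (SD, n = 3 each).

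Some of these levels depend on where the authors' counting put reads. Annotated pseudogenes that match a transcript at 90% identity or more over at least 50% of the pseudogene were found for 13 of the 40 genes and not for the other 27. Their reads were at least 5% of the combined reads of gene and copies for 3 genes. For Npm1 the share was 45.3%, and its copies summed to 403.4, 389.3 and 328.2 TPM with SRT1720 and 332.4, 333.5 and 322 TPM with vehicle. One of them, Gm14681, alone had a mean of 172 TPM. In TPM the copies made up 85.1% of the sum of gene and copies, so the log2 fold change of that sum, 0.20, is mostly the copies' own, and the level of Npm1 is uncertain. For Nop56 the share of reads was 6.25%, but in TPM the copies made up 59.6% of the sum. The length behind the deposited Nop56 values was 4.06 times its annotated exon length, and this length was above the annotated one for 32 of the 40 genes, so levels of different genes depend on it. The Nop56 copies, at 10.3, 11.4 and 9.86 TPM with SRT1720 and 4.72, 6.22 and 3.14 TPM with vehicle, did not overlap between groups. Gene and copies together gave a log2 fold change of 0.91 (limma, adjusted p = 0.307), against 0.56 for Nop56 alone. Because that sum adds TPM, it weighs the copies above the gene although they hold few of the reads. The value of 0.91 is therefore no corrected value for Nop56. For Pes1 the share was 9.36% and the summed log2 fold change 0.48.

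On the opposite strand, another annotated gene overlapped 17 of the 40 genes, and whether the counting used strand is not given in the sources used here. Groups did not overlap for 9 of these 17 and for 13 of the other 23, with median log2 fold changes of 0.43 and 0.37. Gm9988, opposite Heatr3, was listed at 0 in 5 libraries and at 0.078 TPM in Vehicle 1. Rmnd5b, opposite Nhp2, had 3.93, 3.48 and 5.05 TPM with SRT1720 and 2.79, 3.03 and 3.53 TPM with vehicle. Idh3b, opposite Nop56, had 12, 9.96 and 7.04 TPM with SRT1720 and 9.66, 13.1 and 9.12 TPM with vehicle. Pbrm1, opposite Gnl3, had 3.08, 2.89 and 3.52 TPM with SRT1720 and 2.53, 2.28 and 2.84 TPM with vehicle. Overlap was called from whole gene spans, introns included, and shared exons were not compared. If strand was not used, reads from bases that both genes of a pair share may not be told apart. How many reads this concerns was not tested.

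Several of the genes carry snoRNAs in their introns, which are released when the host transcript is spliced. On the same strand, 23 annotated snoRNA genes lay inside 8 of the 40 genes, of which 11 were listed at 0 in all libraries and 6 had a mean of at least 1 TPM. The most reads fell on Snord53, inside Wdr43, at chromosome 17, bases 71640879 to 71640956, plus strand of GRCm38. It is shown with its C box, the element that box C/D proteins bind, in capitals.

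Snord53: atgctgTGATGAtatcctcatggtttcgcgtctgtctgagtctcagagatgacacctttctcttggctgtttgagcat

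Snord53 had 16, 17 and 63 recovered reads in SRT1720 1, 2 and 3 and 18, 20 and 27 in Vehicle 1, 2 and 3, or 3.79, 3.87 and 14.7 TPM and 3.92, 5.44 and 6.72 TPM. SRT1720 3 was the highest library for Snord53 as it was for its host Wdr43. The other SRT1720 libraries lay below all vehicle libraries, but only just, at 16 and 17 reads against 18 in Vehicle 1. Whether the reads on Snord53 came from the snoRNA itself or from host RNA that still held the intron was not tested. The values listed for the snoRNA genes are therefore not read as levels of the snoRNAs.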

How the data were processed

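Total RNA of 6 libraries of mouse bladder tumor organoids was sequenced, and groups and replicate numbers came from the sample titles. The authors deposited 1 table of TPM values, as its name states. The submitters' processing notes name STAR 2.6.0 and GRCm38 without their roles. How reads were counted, by strand or not, which gene lengths were used and how multi-mapping reads were treated is not given in the sources used here. Columns of the deposited TPM table summed to 161231 to 171577 and are read as relative levels per gene, as deposited. Each value above 0 was taken to be a whole number of reads times a step per library and gene length. Of the values of single-exon genes, 96.5% to 96.8% came out whole within 0.01. The smallest length that worked was kept, so recovered reads are a lower bound.

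Symbols came from GENCODE M21 (51719 of 51912 IDs matched). Genes averaging 1 TPM or more were tested with limma 3.58.1 in R 4.3.3, with a mean trend, on log2(TPM + 1) with a pseudocount of 1, and p-values were adjusted by Benjamini-Hochberg over 9287 genes with a threshold of 0.05. The script was tested on simulated data. The log2(TPM + 1) scale understates the fold changes of low genes. The labels do not say whether replicates were separate cultures or animals. The p-values therefore measure the spread between these samples alone, and part of it may be technical.

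The members and lists were chosen with earlier results of these data known. Values in all 6 libraries are given for genes whose groups did not overlap and, in each role class, for the gene with the highest mean and the gene with the largest p. Other genes are given by mean and SD. Of the other pathway genes, at most 8 without overlap were named by smallest p, and any further ones were named after their values were seen. In all, 18 alternatives were tried: 2 pseudocounts, 2 filters, 2 scalings, a replicate block, library weights, voom on recovered reads, genes summed with their pseudogene copies, each library left out in turn, and 2 pairs of libraries left out.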

Additional observations from a re-analysis of the deposited data

How the results depend on the processing

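No gene was called at an adjusted p under 0.05 under any of the 18 alternatives run, and the smallest adjusted p of one of the 40 genes was 0.0538, with library weights. Of 704 fold changes of single genes under these alternatives, 701 kept their sign. The others were Gnl3, at -0.05 without both SRT1720 3 and Vehicle 3, and Nop14, at -0.08 without SRT1720 1 and -0.02 without Vehicle 3, in a range up to 0.58 without Vehicle 2. The cause was not tested. The median log2 fold change of the 40 genes was 0.31 to 0.51 when 1 library was left out and 0.53 without both SRT1720 1 and Vehicle 2. Their number at an unadjusted p under 0.05, 16 in the fit reported, was 5 to 20 when 1 library was left out, 3 without both SRT1720 3 and Vehicle 3 and 25 with library weights, which gave SRT1720 2 a weight of 5.6 and the other libraries 0.489 to 1.3. Over all genes the number, 1153 in the fit reported, was 523 to 1057 when 1 library was left out, 682 without both SRT1720 3 and Vehicle 3, 2056 with library weights, 2028 with no filter and 498 with a minimum of 5 TPM. Fewer genes were tested with that minimum: 24 of the 40 remained and all 24 were above 0, and of the other pathway genes 47 were above 0. With median-of-ratios scaling the number of the 40 without overlap was 16 in place of 22, that of the other pathway genes 30 in place of 41 and the share of all tested genes 9.87% in place of 12.1%. All 40 were above 0, and the all-gene median was -0.00. Limma voom on recovered reads gave a median of 0.52, against 0.05 over all tested genes. With it, 19 of the 40 were at an unadjusted p under 0.05. Of all genes, 1125 were at that p in either direction and 7.6% were higher. With the replicate number as a block the median was 0.40, 12 of the 40 and 1133 of all genes were at an unadjusted p under 0.05 and 0 genes were called. The replicate numbers are not shown to pair the libraries: deviations from the group means correlated at -0.20, -0.26 and 0.79 over genes between libraries with the numbers 1, 2 and 3. Across numbers, SRT1720 1 with Vehicle 2 correlated at 0.72 and SRT1720 2 with Vehicle 1 at 0.68, and the other 4 correlations were between -0.59 and -0.25. Genes are not independent replicates, the labels give no such pairs, and no fit was made with them. The effect of depth on the calls was not tested.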
